A study of Mus musculus with 2 samples.

Results

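The genes described here are 35 of the 32285 genes counted in the series: members of the glutathione, peroxiredoxin, thioredoxin and superoxide dismutase systems, together with NRF2, its inhibitor KEAP1 and widely used NRF2 target genes. They were taken by gene name, by a rule that uses no measured value, and all 35 were found. The list was, however, chosen with earlier results of these data known. Single-cell transcriptomes came from the cornea and limbus, the rim around the cornea, of wild-type (wt) mice. There was 1 uninjured library, labelled control, and 1 library with NaOH injury, an alkali burn. Both were 10x Genomics droplet libraries. They were made from dissected tissue from which most of the conjunctiva had been removed and which was digested with liberase and trypsin. The sources used here give neither the strain, age or sex of the mice nor how long after the burn the tissue was taken. The series is about signalling after an alkali burn, and the comparison below follows 1 protective gene programme through each cell class. Each group is a single library, so nothing below has a replicate check, no test was made, and the difference between libraries cannot be told apart from the difference between the mice.

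Cells meet oxidants such as hydrogen peroxide and lipid peroxides with the tripeptide glutathione and with small thiol proteins that are recharged by NADPH. The transcription factor NRF2, encoded by Nfe2l2, is held at a low level by KEAP1, which marks it for degradation; when reactive chemicals modify KEAP1, NRF2 accumulates, pairs with a small MAF protein and binds the antioxidant response element of its target genes. The cornea is exposed to light and air, and its epithelium is known for an unusually high content of detoxifying enzymes, some of which also serve as crystallins.

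Promoters of 4 members are shown, 3 with a match to the motif and Nqo1 without, so that a reader can see the letters in genes whose levels are given below. Each line gives the 250 bases before the annotated start of transcription, 5′ to 3′ on the gene's own strand, from RefSeq on GRCm38.p6. Capitals mark matches to TGACNNNGC, the core of the antioxidant response element, on either strand; a match on the other strand is printed as its reverse complement. Gclm lies at chr3:122245307-122245556 on the plus strand, Prdx1 at chr4:116685349-116685598 on the plus strand, Txnrd1 at chr10:82858956-82859205 on the plus strand (1 of its 3 annotated starts) and Nqo1 at chr8:107403206-107403455 on the minus strand.
Gclm: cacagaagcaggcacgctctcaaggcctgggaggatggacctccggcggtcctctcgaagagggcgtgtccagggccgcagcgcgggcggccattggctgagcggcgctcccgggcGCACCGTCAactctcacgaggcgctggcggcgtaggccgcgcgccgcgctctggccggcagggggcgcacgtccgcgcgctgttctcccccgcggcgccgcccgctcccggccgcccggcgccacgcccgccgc
Prdx1: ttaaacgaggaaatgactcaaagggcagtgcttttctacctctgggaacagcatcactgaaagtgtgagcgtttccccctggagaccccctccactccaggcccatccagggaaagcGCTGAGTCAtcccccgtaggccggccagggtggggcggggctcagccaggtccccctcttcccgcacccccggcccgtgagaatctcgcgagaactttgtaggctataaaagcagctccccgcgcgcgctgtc
Txnrd1: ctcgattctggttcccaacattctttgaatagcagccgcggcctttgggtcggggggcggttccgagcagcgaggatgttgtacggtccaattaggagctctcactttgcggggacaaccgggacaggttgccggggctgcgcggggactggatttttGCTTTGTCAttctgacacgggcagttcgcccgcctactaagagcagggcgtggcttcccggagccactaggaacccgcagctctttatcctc
Nqo1: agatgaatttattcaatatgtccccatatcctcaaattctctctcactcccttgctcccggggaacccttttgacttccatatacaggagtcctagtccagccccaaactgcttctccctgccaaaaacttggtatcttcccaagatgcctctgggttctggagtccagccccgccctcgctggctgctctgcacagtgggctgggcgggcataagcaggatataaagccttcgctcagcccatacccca
The match begins 134 bases before the start in Gclm, 133 in Prdx1 and 92 in Txnrd1, while the Nqo1 stretch holds none. The Prdx1 match also overlaps a match to TGANTCA, the AP-1 type motif.

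RefSeq promoters were found for 29 of the 35 members, in 36 windows of 300 bases that reach from 250 bases before to 50 after each start. TGACNNNGC was present in 7 of these windows (19.4%), in Gclm, Txnrd1, Srxn1, Prdx1, Gsta3, Sod1 and Nfe2l2, against 12.4% of the 32851 windows of all genes. TGANTCA was present in 3 of the 36 windows, against 7.81% of all. Of those 7 members Gclm was past 2-fold in the epithelium and the other 6 were not, while Gpx2, also past 2-fold there, and the other 2 starts of Txnrd1 hold no match. Whether a match goes with a direction was not tested, and these matches are descriptions of letters within a short window, not of binding. Promoters of Gclc, Gsr, Gsta4, Hmox1, Prdx6 and Sod3 are not shown.

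The uninjured library held 7490 barcodes with 85457541 UMIs (unique molecular identifiers, which count captured transcripts) and the injured library 9399 barcodes with 108863350 UMIs; 15 barcode sequences occurred in both. Filters on cells left 6743 uninjured and 8368 injured cells, which were grouped into classes by marker genes; the ending -like marks names that rest on such markers. Epithelial-like cells numbered 5736 uninjured and 4697 injured, stromal-like 459 and 803, mural-like (the contractile cells around vessels) 58 and 87, Schwann-like 55 and 97, vascular endothelial-like 45 and 211, macrophage or monocyte-like 15 and 344, and neutrophil-like 2 and 1017. Outside these classes stayed 3 uninjured and 16 injured T or NK-like cells, which are not described here. Also outside were 370 shallow uninjured cells and 1096 injured cells. Nearly all of these injured cells lay in a cluster led by Wfdc18 that held 13.0% of the injured library. That cluster carried epithelial markers beside the smooth muscle actin gene Acta2. Keratin UMIs were counted in every class, and whether they came from free RNA, doublets or mixed cells was not tested: the summed level of the keratins Krt5, Krt12, Krt14 and Krt15 in non-epithelial classes was 5.48 to 34.2% of the epithelial level in the uninjured and 4.79 to 13.6% in the injured library.

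Levels are CPM, the UMIs of a gene scaled to the total UMIs of its class, and are not divided by transcript length. Ratios are injured over uninjured, and the ranges after them are exact 95% intervals, which cover counting error only. A member counts as higher or lower where the ratio is at least 2-fold and the interval excludes 1, among genes with at least 20 UMIs over both libraries. A member at less than 25% of its level in the class where it was highest counts as being at a free RNA level, which does not say where that RNA came from. The highest class can be a small one: epithelial Nfe2l2 is set against the 15 uninjured macrophage or monocyte-like cells. Those members stay in the counts. In the epithelium they were 12 of the 35: Nfe2l2, Gsr, Slc7a11, Gpx3, Gstm1, Prdx4, Txnrd1, Srxn1, Sod3, Hmox1, Fth1 and Ftl1. In the stroma they were 8: Gsr, Slc7a11, Gpx2, Gsta2, Gsta4, Gsto1, Srxn1 and Fth1. In mural-like cells they were 11, in Schwann-like 11, in endothelial 12, in macrophage or monocyte-like 12 and in neutrophil-like cells 17. Gsr, Slc7a11, Gsta2, Gsto1, Srxn1, Sod3 and Fth1 were among them in each of the mural, Schwann and endothelial classes.

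**Figure D1:**
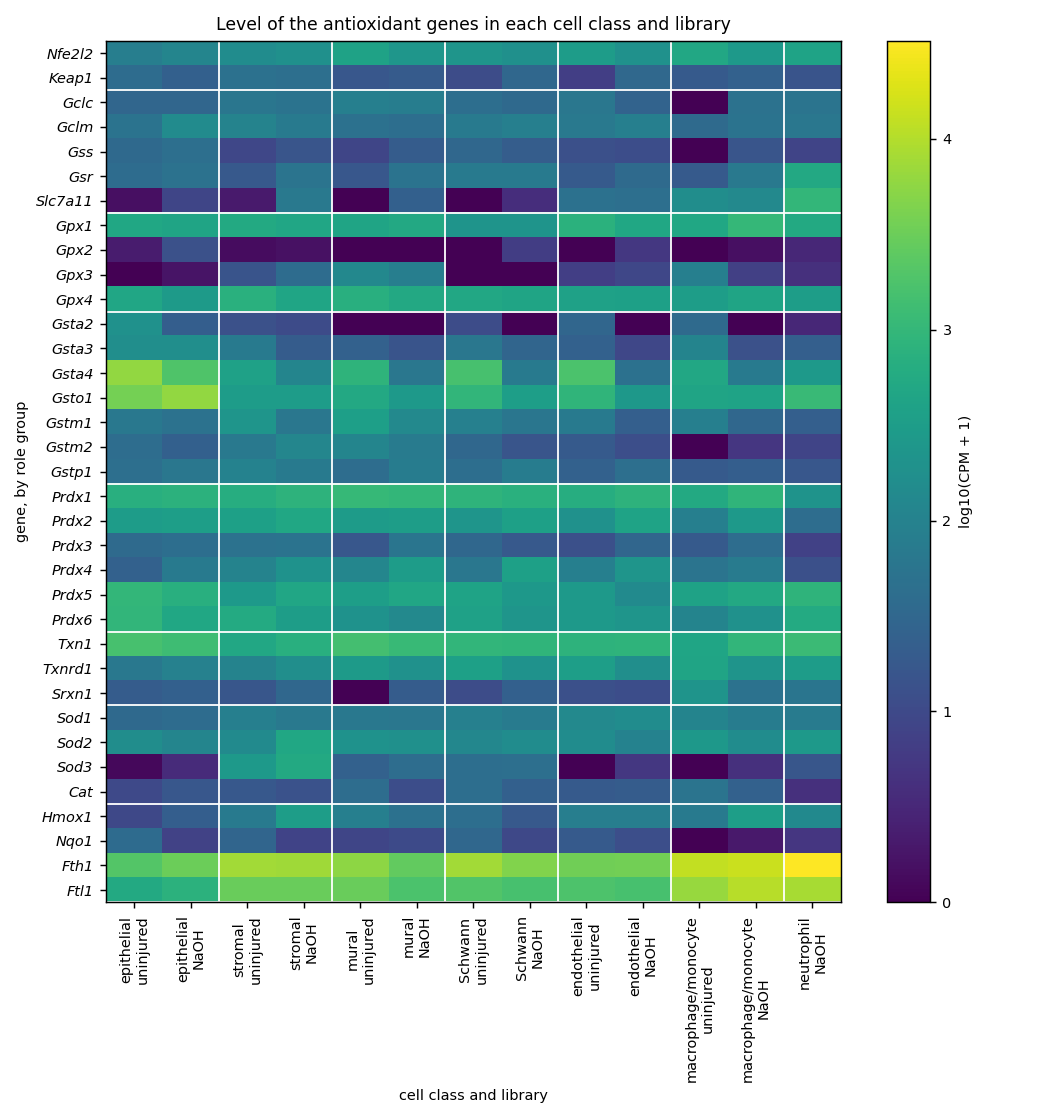
Level of each of the 35 members (rows, grouped by role) in each cell class of the uninjured and NaOH-injured libraries (columns), as a colour scale of log10(CPM + 1); neutrophil-like cells are shown for the injured library only. Gsta4 and Gsto1 are brightest (highest) in the epithelium, Slc7a11 and Fth1 in neutrophil-like cells, and Sod3 in the stroma.

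In epithelial-like cells single members of the glutathione system went in opposite directions. Gclm, the regulatory subunit of the enzyme that makes the glutathione precursor, was 2.90-fold higher after injury, while the transferases Gsta2 and Gsta4 and the quinone reductase Nqo1 were 8.64-fold, 3.28-fold and 5.47-fold lower. Of the 35 members, all of which passed the 20 UMI limit, 7 were higher, where 12.9% of the 14462 genes tested were, and 3 were lower, where 11.4% were; either way the members had 10 of 35 and all genes 24.2%. The median log2 ratio of the members was 0.21, beside -0.02 over all genes tested. Of the 7 higher members 5 stood at a free RNA level by the rule, and the others were Gclm and Gpx2. The rule compares levels between classes only, and whether those 5 were counted from free RNA was not tested. The corneal epithelial markers Krt12, Slurp1, Upk1b, Pax6 and Aldh3a1 summed to 34933 CPM in the uninjured and 521 CPM in the injured epithelium. The class was made of different clusters in each library, so a change in its makeup cannot be told apart from a change within its cells. Clusters that both libraries share are compared below.

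NRF2 and KEAP1 transcripts differed little. Nfe2l2 stood at 85.0 CPM uninjured and 114 CPM injured, a ratio of 1.34 (1.30 to 1.39). Keap1 stood at 38.5 and 23.5 CPM, 1.64-fold lower (1.54 to 1.74). Neither passed the 2-fold limit.

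Among the genes of glutathione synthesis and cystine import, Gclm (ENSMUSG00000028124, chromosome 3, 122245557 to 122270732, plus strand) stood at 50.9 CPM uninjured and 148 CPM injured, 2.90-fold higher (2.795 to 3.015). Its catalytic partner Gclc stood at 30.2 and 30.1 CPM, a ratio with an interval of 0.938 to 1.06, so 1 of the 2 subunits passed the limit. Gss, which completes glutathione, and Gsr, which recycles its oxidised form, stood at 33.5 and 38.5 CPM uninjured and 43.5 and 49.1 CPM injured. Slc7a11, the cystine importer, was counted at 0.557 and 7.85 CPM, which is 0.822% of its level in neutrophil-like cells.

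The peroxidases, which use glutathione to reduce peroxides, were led by Gpx1 in UMIs, at 485 CPM uninjured and 437 CPM injured. Gpx4, which reduces lipid peroxides within membranes, stood at 477 and 282 CPM, 1.69-fold lower and within the 2-fold limit. Gpx2, the epithelial form best known from the gut (chromosome 12, 76792333 to 76795554, minus strand), was 10.3-fold higher (8.22 to 12.9), at 12.3 CPM against 1.19 CPM. It was higher in each injured epithelial cluster, at 6.64 to 18.1 CPM, than in the uninjured cells of every epithelial cluster (0 to 1.66 CPM), other than cluster 2 with 6.79 CPM. Gpx3, the secreted plasma form, was nearly absent at 0.722 CPM or less.

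The transferases, which attach glutathione to electrophiles, held the largest and most divided levels. Gsta4, which clears the lipid peroxidation product 4-hydroxynonenal (chromosome 9, 78182774 to 78209349, plus strand), stood at 6027 CPM uninjured and 1839 CPM injured, 3.28-fold lower (3.26 to 3.30). Gsta2, on the same chromosome at 78331018 to 78355788 on the minus strand, stood at 188 and 21.8 CPM, 8.64-fold lower (8.18 to 9.14). It shares most of its sequence with Gsta1, which was also lower (8.85 and 2.66 CPM), so the split of reads between that pair is uncertain. Gsto1, an omega class enzyme that reduces glutathione adducts, moved the other way within the limit, from 3733 to 6158 CPM, a ratio of 1.65 (1.64 to 1.66). Gsta3, Gstm1, Gstm2 and Gstp1 stood at 39.4 to 171 CPM uninjured and 23.0 to 169 CPM injured, none of them past 2-fold.

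Thiol peroxidases and the thioredoxin system were largely level. Txn1, the thioredoxin that donates electrons to peroxiredoxins, stood at 1574 and 1296 CPM. Prdx5 led the peroxiredoxins in the uninjured epithelium at 967 CPM, with 690 CPM after injury, and Prdx1 led in the injured epithelium at 782 CPM, with 698 CPM before. Prdx6, which also acts on phospholipids, stood at 921 and 486 CPM, 1.89-fold lower. The endoplasmic reticulum enzyme Prdx4 alone among the 6 was higher, at 24.4 and 70.2 CPM, 2.87-fold (2.72 to 3.04), although 70.2 CPM is 19.5% of its Schwann-like level. Txnrd1, which recharges thioredoxin, and Srxn1, which repairs overoxidised peroxiredoxins, stood at 63.1 and 19.8 CPM uninjured and 94.5 and 22.8 CPM injured.

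Among the superoxide dismutases Sod2, the mitochondrial form, led in UMIs at 161 CPM uninjured and 114 CPM injured. Sod1 and catalase (Cat) stood below 50 CPM in both libraries, and extracellular Sod3 at 2.60 CPM or less. Nqo1, which reduces quinones (chromosome 8, 107388225 to 107403206, minus strand), stood at 36.8 and 6.73 CPM, 5.47-fold lower (4.94 to 6.06). Hmox1, which breaks down heme, stood at 8.50 and 21.7 CPM, 2.55-fold higher (2.32 to 2.81), at 6.47% of its level in injured macrophage or monocyte-like cells; macrophage markers summed to 17.7 CPM in the injured epithelium and to 7185 CPM in macrophages. The ferritin chains, which store iron, stood at 2043 and 3133 CPM for Fth1 and at 560 and 786 CPM for Ftl1, with processed pseudogenes of both able to share reads.

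**Figure D2:**
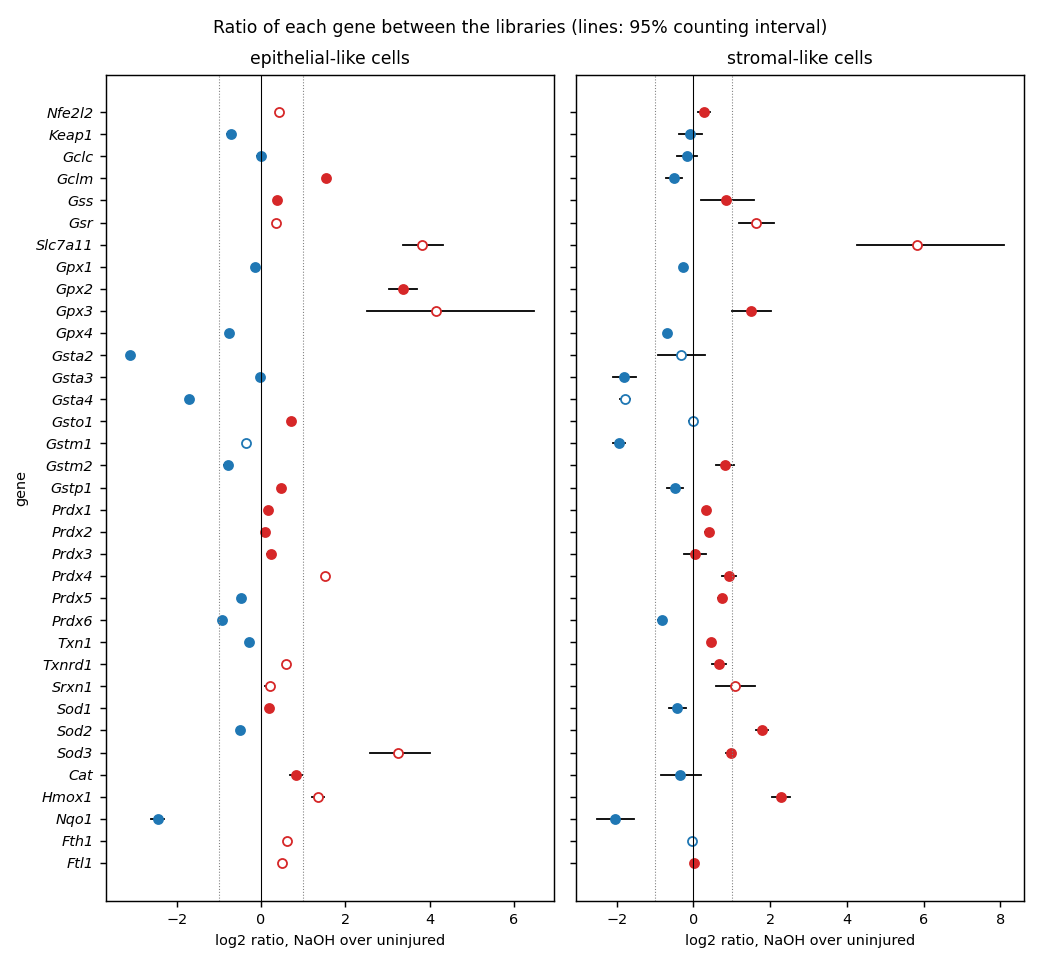
Ratio of injured to uninjured CPM for each member tested, with a panel for epithelial-like and a panel for stromal-like cells, on a log2 axis. Lines are exact 95% counting intervals and dotted lines mark 2-fold. Red points are higher, blue points lower, and open points stand at a free RNA level. Epithelial Gsta2 and Nqo1 lie far to the left and Gclm to the right.

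Levels of several members differed between epithelial clusters of the same library. Gsto1 ranged from 937 to 1329 CPM in 4 of the large uninjured clusters, stood at 5325 CPM in cluster 4 and reached 26335 CPM in cluster 7, both of which were high in Krt12. In the injured library it stood at 17903 CPM in cluster 5, which was high in the conjunctival keratins Krt13 and Krt4, and at 770 to 2488 CPM in the other injured clusters. Higher Gsto1 over the whole injured epithelium thus rested on cluster 5, which held 843 of the 4697 injured epithelial cells and 33 of the 5736 uninjured.

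Gsta4 was high in the same uninjured clusters as Gsto1 and lower after injury. It stood at 12191 CPM in cluster 4, 11752 CPM in cluster 7 and 10616 CPM in cluster 5 of the uninjured library, and at 1535 CPM in cluster 2, whose level of the limbal gene Gpha2 was 2266 CPM. After injury it reached 4944 CPM in cluster 5 and 1733 CPM in cluster 6, and stood between 299 and 453 CPM in clusters 2, 12, 16 and 19. Prdx5 was ordered in the same way, with 2017 CPM in uninjured cluster 7, 1376 CPM in injured cluster 5 and 348 CPM in injured cluster 16. The levels across clusters are a description, since clusters of 1 library share its free RNA and depth.

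The ferritin chains were ordered in opposite ways. Fth1 was highest where Gsto1 was, at 6926 CPM in uninjured cluster 7 and 6050 CPM in injured cluster 5, and stood between 1138 and 2353 CPM elsewhere. Ftl1 was lowest in uninjured cluster 7, at 62.1 CPM, and in uninjured cluster 4, at 127 CPM, and highest in injured cluster 19, at 1402 CPM, and injured cluster 2, at 1224 CPM. In the injured library Gclm was lowest in cluster 5, at 69.3 CPM, and stood at 192 to 224 CPM in clusters 2, 12 and 16.

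**Figure D3:**
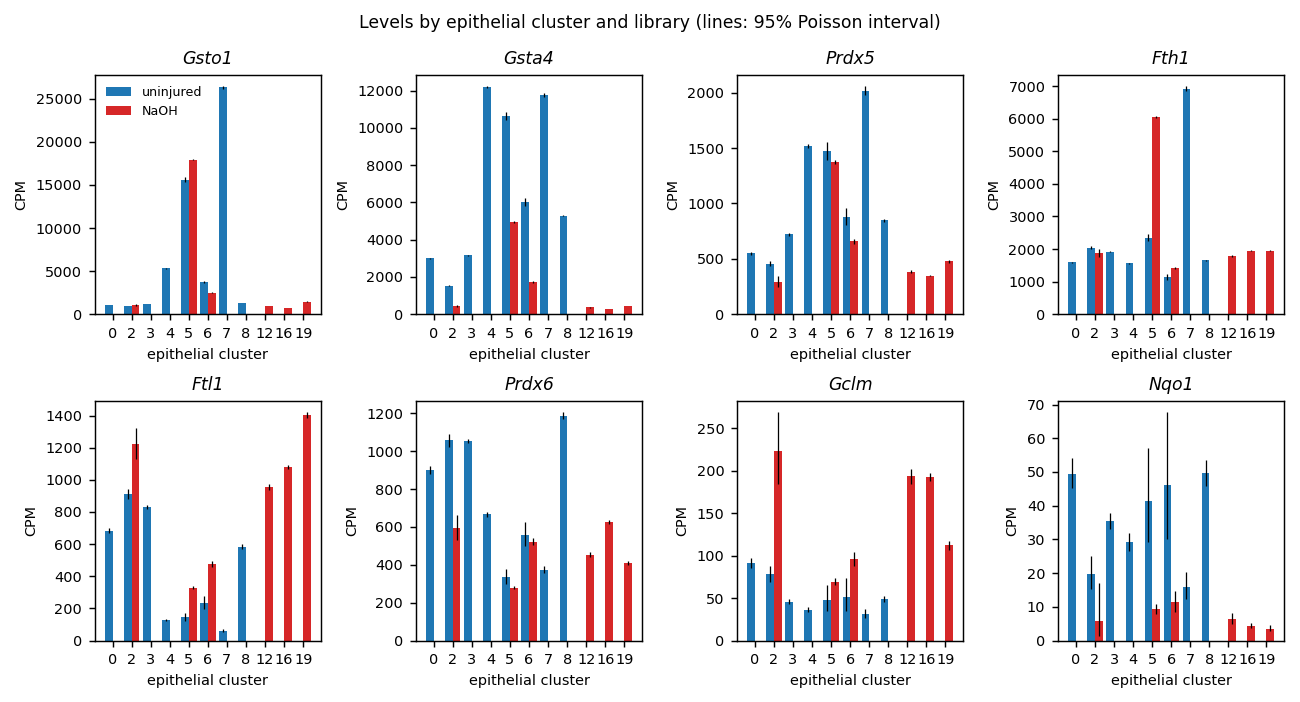
Level (CPM, linear axes from 0) of 8 members in each epithelial cluster and in the unnamed injured cluster 19, uninjured bars in blue and injured bars in red, with lines for exact 95% Poisson intervals. Gsto1 and Fth1 peak in uninjured cluster 7 and injured cluster 5, while Ftl1 is lowest in uninjured clusters 4 and 7.

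In 3 epithelial clusters both libraries held at least 10 cells, and there the libraries were compared within the same cluster. These were cluster 2 with 342 uninjured and 64 injured cells, cluster 5 with 33 and 843, and cluster 6 with 38 and 398. Nqo1 was lower in all 3, by 3.36-fold (1.11 to 16.7, on 3 injured UMIs), 4.46-fold (3.04 to 6.37) and 4.06-fold (2.45 to 6.57). Gsta2 was 9.23-fold, 4.11-fold and 6.53-fold lower, and Gsta4 3.39-fold, 2.15-fold and 3.48-fold lower. These 3 genes were thus lower within each shared cluster as well as over the whole class. Cells that share a cluster need not be in the same state. At Leiden resolution 2 an epithelial cluster led by Krt4 held 33 uninjured and 543 injured cells, and another, led by Ppbp, held 0 and 317. The part of makeup within the shared clusters in their ratios was not tested.

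Hmox1 was 2.77-fold (1.65 to 4.52), 3.16-fold (1.52 to 7.90) and 3.44-fold (1.14 to 17.0, on 3 uninjured UMIs) higher in clusters 2, 5 and 6. Gclm was 2.87-fold higher (2.28 to 3.58) in cluster 2, with ratios of 1.44 (1.06 to 1.99) in cluster 5 and 1.86 (1.28 to 2.80) in cluster 6, so the 2-fold limit was passed in 1 of the 3. Txnrd1 passed it in clusters 5 and 6, at 2.84-fold (1.96 to 4.29) and 2.10-fold (1.43 to 3.19), with a ratio of 1.05 in cluster 2. Prdx4 was 5.08-fold higher (2.75 to 10.6) in cluster 5 and had ratios of 1.02 and 1.10 in clusters 2 and 6. Gsto1 had ratios of 1.14, 1.15 and 0.666, none past 2-fold.

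Dividing cells were found in both libraries, in separate clusters, and nothing here shows that they are the same epithelial type. The uninjured dividing cluster 0 and the injured dividing cluster 12 had Gclm at 91.4 and 193 CPM, Nqo1 at 49.5 and 6.46 CPM, Gsta4 at 2996 and 366 CPM and Prdx4 at 72.8 and 150 CPM. Each of these had the same direction as over the whole class. In the Wfdc18-led cluster 19, which has no uninjured cells, Gclm stood at 112 CPM, Nqo1 at 3.57 CPM, Gpx2 at 30.1 CPM and Gsr at 82.3 CPM, Gpx2 and Gsr standing above their levels in the injured epithelial clusters (at most 18.1 and 68.1 CPM).

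**Figure D4:**
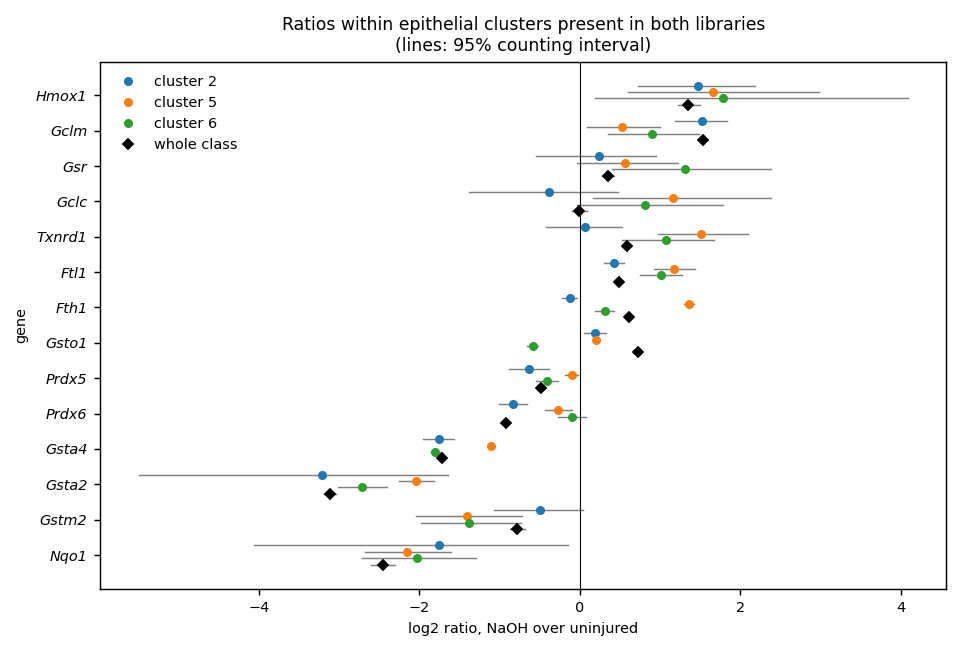
Log2 ratio of injured to uninjured CPM for 14 members within epithelial clusters 2, 5 and 6, which both libraries shared (coloured points), and over the whole class (black diamonds), with lines for exact 95% counting intervals. Nqo1, Gsta2 and Gsta4 lie to the left in all 3 clusters and Hmox1 to the right, while Gsto1 lies farther right over the whole class than in any of them.

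In stromal-like cells, the keratocytes and fibroblasts that build and maintain the corneal matrix, Hmox1 and Sod2 were 4.86-fold and 3.47-fold higher after injury, and Gstm1 and Gsta3 3.84-fold and 3.48-fold lower. Of 34 members tested 6 were higher, where 9.88% of the 11975 genes tested were, and 4 were lower, where 9.37% were, or 10 of 34 either way, where 19.2% of all genes were. Their median log2 ratio was 0.02, beside 0.01 over all genes. Of the 10 called members 4 stood at a free RNA level (Gsr, Slc7a11, Srxn1 and Gsta4).

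Hmox1 (ENSMUSG00000005413, chromosome 8, 75093621 to 75100589, plus strand) stood at 67.3 CPM uninjured and 327 CPM injured, 4.86-fold higher (4.17 to 5.69). Sod2 (ENSMUSG00000006818, chromosome 17, 13006846 to 13040063, plus strand) stood at 141 and 489 CPM, 3.47-fold higher (3.12 to 3.87). Both were at or near their highest level of any class in the injured stroma, and the summed macrophage and neutrophil markers there were 11.1 and 115 CPM, against 7185 and 59338 CPM in those classes. Extracellular Sod3, which binds matrix, led its group in the injured stroma at 548 CPM, with 281 CPM before, a ratio of 1.96 (1.81 to 2.12) just under the limit.

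Lower in the stroma were Gstm1, a mu class transferase (chromosome 3, 108012255 to 108017973, minus strand), at 229 and 59.6 CPM, 3.84-fold (3.42 to 4.31), and Gsta3 at 68.5 and 19.7 CPM, 3.48-fold (2.82 to 4.28). The neighbouring Gstm2 stood at 65.8 and 116 CPM, a ratio of 1.77 (1.50 to 2.09), and since the pair is alike in sequence the division of reads between them is uncertain. Nqo1 was lower here too, at 28.6 and 6.99 CPM, 4.09-fold (2.91 to 5.75). Gsta4, at 387 and 112 CPM, stood at 6.42% of its uninjured epithelial level, where keratins stood at 5.48%.

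Nfe2l2 and Keap1 stayed within the limit over the class, at 153 and 185 CPM and at 46.4 and 43.7 CPM. Of the 5 genes of glutathione synthesis and cystine import 2 were higher, Gsr and Slc7a11, both at a free RNA level. Gss stood at 8.13 and 14.7 CPM, a ratio of 1.81 whose interval begins at 1.14. Gclm, higher in the epithelium, stood at 103 CPM uninjured and 72.2 CPM injured in the stroma, a ratio of 0.704 (0.611 to 0.813); whether the classes differ was not tested. Gpx4 led the peroxidases at 722 CPM in the uninjured stroma, with 448 CPM injured, where Gpx1 led at 465 CPM, with 562 CPM before. The other leading members were Prdx1 at 644 and 815 CPM and Txn1 at 506 and 697 CPM. Fth1, at 7668 and 7473 CPM, was at a free RNA level by the rule, with 23.5% of its neutrophil level. Gsto1, at 315 and 312 CPM, stood at 8.43% of the uninjured and 5.07% of the injured epithelial level, where the keratins stood at 5.48 and 4.83%.

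Slc7a11, on chromosome 3 at 49892526 to 50443614 on the minus strand, was counted 3 times in the uninjured and 664 times in the injured stroma, 1.16 and 65.4 CPM, a ratio of 56.3 (19.2 to 274). The injured level was 6.85% of that in neutrophil-like cells and falls under the free RNA rule, and the neutrophil genes S100a8 and S100a9 stood at 0.217 and 0.171% of their neutrophil level in the same stromal cells. The source of these UMIs was not tested. Gsr, at 17.4 and 54.0 CPM, 3.10-fold higher (2.28 to 4.30), stood at 10.3% of its neutrophil level. Srxn1 stood at 15.1 and 31.8 CPM, 2.11-fold higher (1.51 to 3.02).

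The stroma too was made of different clusters, 420 of 459 uninjured cells in cluster 1 and 802 of 803 injured cells in cluster 13, with 39 uninjured cells in the latter. Within cluster 13 Hmox1 was 9.07-fold higher (3.54 to 33.3) and Sod2 10.9-fold higher (4.66 to 33.5), on 4 and 5 uninjured UMIs, and Gstm1 and Gsta3 were 3.48-fold (2.19 to 5.27) and 3.20-fold (1.27 to 6.71) lower. Nfe2l2, Txnrd1, Sod3 and Prdx5, within the limit over the class, were 3.42-fold (1.57 to 9.33), 4.65-fold (1.81 to 17.1), 3.21-fold (2.05 to 5.33) and 2.01-fold (1.37 to 3.08) higher there. Gpx3 turned direction: over the class it stood at 13.9 and 39.1 CPM, 2.81-fold higher (1.99 to 4.07), and within cluster 13 at 306 and 38.9 CPM, 7.86-fold lower (5.37 to 11.2), since cluster 1 held it at 0.809 CPM. For Gpx3 the makeup of the stroma and a change within its cells cannot be told apart over the class. Cluster 13 need not be uniform either. With 15 components a stromal cluster led by Mmp3 held 2 uninjured and 746 injured cells, and another, led by Igfbp6, held 100 and 56. The part of makeup within cluster 13 in its ratios was not tested.

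**Figure D5:**
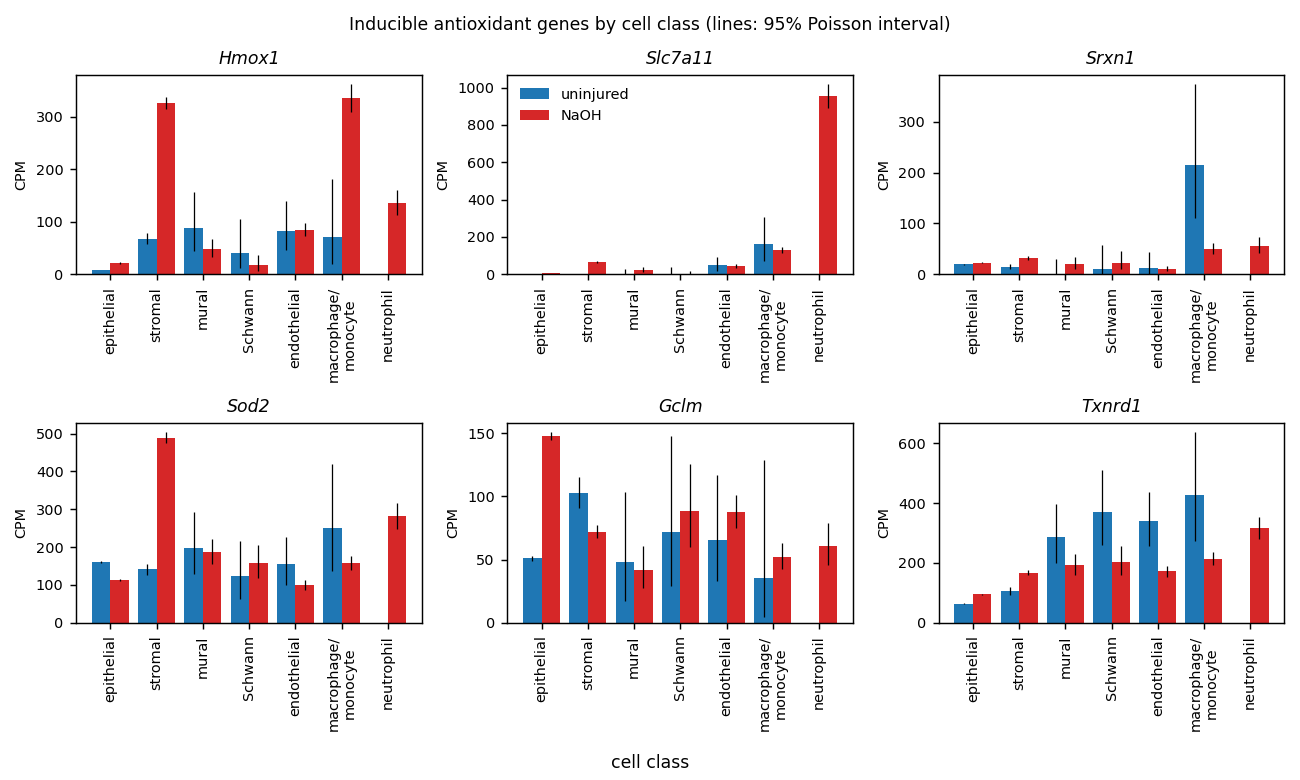
Level (CPM, linear axes from 0) of 6 inducible members in each cell class, uninjured bars in blue and NaOH-injured bars in red, with lines for exact 95% Poisson intervals. Hmox1 separates the libraries in the stroma and in macrophages, Gclm in the epithelium, and Slc7a11 is highest in injured neutrophil-like cells.

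In macrophage or monocyte-like cells, of which the uninjured library held only 15, 4 of 29 members tested were higher (2.75% of 7297 genes were) and 3 lower (3.52% were), 7 in either direction where 6.28% of all genes were. The median log2 ratio was -0.10 for the members and -0.74 for all genes tested, and with ratios centred on the median gene 10 members were higher. Of the genes tested here 61.5% had fewer than 3 uninjured UMIs, which the ratio counts as 3. This can only lower the ratio of such a gene, and so it pulls the median over all genes down. The centred count of 10 inherits that, and the size of the effect was not tested. A gene with no uninjured UMI cannot be called lower, and the count of 3 makes a higher call harder. The shares over all genes are limited in the same way, and the members were not compared with genes of like abundance. Epithelial markers summed to 8523 CPM in these uninjured and 1554 CPM in the injured cells, and dendritic markers to 606 and 96.4 CPM; their part in the ratios was not tested.

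Hmox1, with which macrophages break down the heme of engulfed red cells, stood at 71.3 CPM uninjured (4 UMIs) and 336 CPM injured, 4.71-fold higher (1.83 to 17.3), and its log2 ratio dropped from 2.24 to 0.77 when every cell was thinned to 1000 UMIs. Prdx2 was 2.96-fold higher (1.26 to 9.16), Txn1 2.13-fold (1.44 to 3.31) and Gpx1 2.09-fold (1.43 to 3.17), Gpx1 reaching 1004 CPM, its highest level in any class. Each of these 3 calls ended under an alternative: the log2 ratio of Prdx2 went from 1.57 to 0.30 after thinning, that of Txn1 from 1.09 to 0.56 with cells weighted alike and 0.91 with 15 components, and that of Gpx1 from 1.06 to 0.69 without doublet removal, 0.74 with cells weighted alike and 0.53 after thinning. Srxn1 stood at 214 and 49.8 CPM, 4.30-fold lower (2.15 to 7.87), and Gsta3 at 107 and 12.0 CPM, 8.88-fold lower (2.96 to 22.4), on 12 and 6 uninjured UMIs. Gsta4, also lower, stood at a free RNA level.

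Nfe2l2 stood at 499 and 279 CPM in these cells and Keap1 at 17.8 and 24.6 CPM. Slc7a11 led its group at 160 and 131 CPM, and the ferritin chains were abundant in both libraries, Fth1 at 12659 and 14238 CPM and Ftl1 at 6490 and 10493 CPM. The other leading members were Gsto1 at 428 and 419 CPM, Prdx1 at 553 and 889 CPM and Sod2 at 250 and 157 CPM.

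Neutrophil-like cells, granulocytes that produce oxidants to kill microbes, can be described in the injured library only, where they had a median of 852 UMIs. Fth1 stood at 32675 CPM (32311 to 33043) and Slc7a11 at 954 CPM (893 to 1019), each the highest level of any class. Gsr, which regenerates glutathione with NADPH, was highest there too, at 524 CPM (479 to 573). Nfe2l2 stood at 421 CPM (380 to 464) and Keap1 at 13.8 CPM (7.37 to 23.7), while Nqo1, a textbook NRF2 target, stood at 4.26 CPM (1.16 to 10.9).

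The other leading members in neutrophil-like cells were Gpx1 at 553 CPM, Prdx5 at 875 CPM, Txn1 at 1189 CPM and Sod2 at 281 CPM. Gsto1, at 1134 CPM, stood at 18.4% of its injured epithelial level, where the keratins stood at 12.4%. Of the remaining members Prdx4, Prdx3, Gss, Cat, Gpx2, Gpx3, Gsta2 and Gstm2 stood between 2.13 and 11.7 CPM.

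In vascular endothelial-like cells 2 of 31 members were higher (6.74% of 7983 genes were) and 4 lower (6.68% were, and 13.4% either way), with a median log2 ratio of -0.19 beside -0.06 over all genes. Prdx2, the peroxiredoxin best known from red cells, stood at 190 and 423 CPM, 2.22-fold higher (1.56 to 3.27), and Prdx4 at 89.2 and 223 CPM, 2.50-fold higher (1.50 to 4.50). Gclc stood at 59.5 and 25.9 CPM, 2.29-fold lower (1.04 to 4.56). Gsta4 stood at 1736 and 47.9 CPM, 36.2-fold lower (28.7 to 46.0), but its uninjured level was 28.8% of the epithelial one, where the epithelial genes Krt12 and Slurp1 stood at 23.2 and 24.8%. Its log2 ratio of -5.18 became -3.26 without doublet removal, -3.57 under stricter cell limits and -8.57 with epithelial RNA subtracted by its keratin level. Gsto1 and Gstm1, also lower, stood at a free RNA level. Lymphatic endothelial markers summed to 29.7 CPM in the uninjured and 1482 CPM in the injured cells, and their part in these ratios was not tested.

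In mural-like cells 1 of 26 members was higher (8.8% of 4658 genes were) and 3 lower (8.09% were, and 16.9% either way), with a median log2 ratio of -0.29 beside 0.21 over all genes. Prdx4 stood at 119 and 309 CPM, 2.59-fold higher (1.53 to 4.72), and Gstm1 at 350 and 131 CPM, 2.68-fold lower (1.82 to 3.90). The log2 ratio of Gstm1, -1.42, became -0.79 with cells weighted alike and -0.95 after thinning, both within 2-fold. In Schwann-like cells 1 of 20 members was higher (10.1% of 3551 genes were) and 2 lower (5.63% were, and 15.8% either way), with a median log2 ratio of -0.24 beside 0.22. Prdx4 stood at 61.5 CPM uninjured, on 6 UMIs, and 360 CPM injured, 5.86-fold higher (2.62 to 16.3). Gsta4 stood at 1589 and 71.5 CPM, with the uninjured level at 26.4% of the epithelial one, where Krt12 and Slurp1 stood at 34.4 and 42.1%. Its log2 ratio of -4.47 became -3.09 without doublet removal and -2.21 with epithelial RNA subtracted. Relative to the median gene, the log2 ratio of Prdx4 was 1.16 in mural-like and 2.33 in Schwann-like cells.

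Prdx4, a peroxiredoxin that works where secreted proteins fold (chromosome X, 155323918 to 155340754, minus strand), was called higher in the epithelial, mural, Schwann and endothelial classes, with a ratio of 1.91 (1.68 to 2.18) in the stroma. The epithelial call was made at a free RNA level and was not met in clusters 2 and 6, and the endothelial log2 ratio of 1.32 became 0.70 with cells weighted alike and 0.48 after thinning. Summed markers of dividing cells went from 47.7 to 709 CPM in mural, from 20.5 to 1350 CPM in Schwann-like and from 17.8 to 770 CPM in endothelial cells, and from 383 to 355 CPM in the epithelium; their part in the Prdx4 ratios was not tested. Nfe2l2 had ratios of 0.580 (0.419 to 0.816) in mural, 0.824 (0.501 to 1.40) in Schwann and 0.616 (0.462 to 0.837) in endothelial cells, and Keap1 was counted too rarely to test in mural and Schwann cells. In endothelial cells Keap1 stood at 5.95 and 32.8 CPM, on 1 uninjured UMI. Leading members of the other role groups in these 3 classes (Gpx1 or Gpx4, Prdx1, Txn1, Sod1 or Sod2, and Fth1) had ratios between 0.488 and 1.28, of which mural Fth1, at a free RNA level, was past 2-fold. The synthesis genes were led by Gclc in mural cells, at 87.4 and 81.5 CPM, and by Gclm in Schwann-like cells, at 71.8 and 88.6 CPM, and in endothelial cells, at 65.4 and 87.5 CPM.

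A further 105 genes of 7 neighbouring pathways were counted by the same rule. For these counts in the epithelium, 12.9% of all genes tested were higher and 11.4% lower. There 1 of 11 NRF2 regulators and small MAF partners was higher and 1 lower, the latter Sqstm1, an adaptor that draws KEAP1 into autophagy, at 533 and 247 CPM, 2.16-fold; the higher one stood at a free RNA level. Of 8 genes of NADPH supply 1 was higher and 1 lower, the latter the crystallin transketolase Tkt, at 4472 and 589 CPM. Of 28 other glutathione enzymes 4 were higher and 10 lower (1 and 6 above a free RNA level), of 19 thioredoxin and thiol repair genes 1 and 4 (0 and 1 above it), and of 14 detoxification genes 1 and 3 (all above it). Aldh3a1, a corneal crystallin and a marker of the class, was 28.3-fold lower, at 10317 and 365 CPM. Of 10 iron and metallothionein genes 4 were higher (2 above a free RNA level) and 3 lower, among them the metal-binding Mt1, at 4061 and 1312 CPM, and Mt2, at 2059 and 723 CPM. Of 12 oxidant producers 6 were higher and 2 lower, each of these 8 under 50 CPM in both libraries, and above a free RNA level were 2 higher, Duoxa1 and Xdh, and none lower.

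In the stroma the metallothioneins went the other way: Mt2 stood at 346 and 914 CPM, 2.64-fold higher (2.47 to 2.83), and Mt1, at a free RNA level by the rule used here, at 724 and 2154 CPM, 2.98-fold higher (2.84 to 3.12). For the stromal counts, 9.88% of all genes tested were higher and 9.37% lower. Of 10 iron and metallothionein genes 3 were higher (2 above a free RNA level) and none lower, the third being Cp, the ferroxidase ceruloplasmin, at 23.2 and 75.8 CPM. Of 22 other glutathione enzymes 5 were higher (2 above a free RNA level), among them Gpx7 at 54.6 and 137 CPM, and 4 lower, among them Gstt1 at 140 and 49.1 CPM. Of 14 detoxification genes 3 were higher, among them Ugdh at 40.6 and 105 CPM, and 3 lower (Aldh3a1, Ephx1 and Aldh1a1). Of 10 NRF2 regulators 1 was higher, at a free RNA level, and none lower, and of 7 genes of NADPH supply 2 were higher and 1 lower.

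Of 9 regulators and partners of NRF2 tested in mural-like cells 4 were lower, where 8.09% of all genes were, and none higher, with a median log2 ratio of -0.52 beside 0.21 over all genes. They were the small MAF genes Mafk, at 318 and 56.9 CPM, and Maff, at 270 and 92.2 CPM, with Sqstm1 and Nfe2l1. In endothelial cells 3 of 9 were lower, where 6.68% of all genes were, with a median of -0.56 beside -0.06: Mafk at 131 and 50.9 CPM, Maff at 166 and 64.1 CPM, and Nfe2l1. In Schwann-like cells 1 of 9 was lower, where 5.63% were, Mafk at 123 and 40.0 CPM, and the median was 0.35 beside 0.22. In macrophage or monocyte-like cells 2 of 9 were lower, where 3.52% were, with a median of 0.10 beside -0.74. They were Maff at 160 and 39.8 CPM and Bach1, a repressor at antioxidant response elements, at 428 and 134 CPM. The median of -0.74 is lowered by counting uninjured UMIs under 3 as 3. These levels rest on 58 mural, 45 endothelial, 55 Schwann and 15 macrophage cells in the uninjured library. Genes of the pathway lists were not recomputed in the alternatives given below.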

How the data were processed

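The deposited matrices hold raw UMI counts per gene and barcode, which, per the file headers, the authors obtained from Cell Ranger 7.0.1; the build, GRCm38, is per the submitters' processing notes. The droplet chemistry and annotation version are not stated in those sources. Gene coordinates come from GENCODE M21 and promoters from RefSeq. A cell needed 300 or more genes, 500 or more UMIs and no more than 20% of UMIs from mitochondrial genes. Scrublet's own threshold marked 32 and 2 cells (0.448 and 0.0222%), taken as a failure, so the highest scores were removed at an assumed 0.8% per 1000 barcodes (407 and 635 cells). Both libraries were clustered together with scanpy 1.11.5 (2000 variable genes, 30 components, 20 neighbours, Leiden resolution 1), without batch correction, and clusters were named by marker genes, at least 3 of them detected; clusters that were shallow or led by another class stayed unnamed, and names may differ from those of the study.

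UMIs were summed per class and library, and compared for classes that had 10 or more cells in both libraries. Sums under 3 were set to 3 for ratios; intervals are exact Poisson (levels) or conditional binomial (ratios), from scipy 1.17.1, and treat UMIs as independent. No test was possible with 1 library per group. Members were given in full at 50 CPM or more in 1 library, at 25% or more of their level in the highest class and at a 2-fold or larger ratio either way whose interval excludes 1; the leading member of each role group by UMIs was given as well, and other genes are named after their values were seen. The calling was tried on simulated Poisson counts, with altered levels only in genes above a minimum expected count. Those counts hold no variation between cells or mice, so the trial says nothing about such variation. The members and lists were chosen with earlier results of these data known. The alternatives tried were other cell filters, doublet handling, clustering, UMI minimums, weighting, thinning, centring and free RNA handling.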

Additional observations from a re-analysis of the deposited data

Results flagged for a closer look

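Srxn1, which repairs overoxidised peroxiredoxins, went in opposite directions in different classes. Its log2 ratio was 1.08 in stromal-like cells, where it was higher after injury, and -2.10 in macrophage or monocyte-like cells, where it was lower. The stromal level, at 31.8 CPM injured, is a free RNA level by the rule used here, and the macrophage ratio rests on 12 UMIs of 15 uninjured cells. The difference between the classes was not tested.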

How the results depend on the processing

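No paired analysis was possible because each group has 1 library. The log2 ratios given in full, 21 pairs of member and class over 13 members, were recomputed in 186 alternatives. Of these, 147 stayed within the counting interval of the reported ratio, 39 moved beyond it and none reversed. In 11 a ratio fell under 2-fold (Gstm1 in mural, Prdx4 in endothelial, and Hmox1, Gpx1, Prdx2 and Txn1 in macrophage or monocyte-like cells). Nqo1 and Gpx2, under 50 CPM in the epithelium, were not among the pairs, so their ratios were not recomputed. Of 142 recomputed counts of members 117 stayed within 1.5 times. With members at a free RNA level left out, 2 members were higher in the epithelium and 3 in the stroma. Lower were then 1 in mural, 1 in Schwann and 2 in endothelial cells. The Schwann call left was Gsta4, at 26.4% of its uninjured epithelial level, where the keratins stood at 34.2%. The limit of the rule lies below that keratin share, so it need not remove epithelial RNA there. Gsta4 was also among the endothelial calls left, at 28.8%, where the keratins stood at 21.0%. The source of these Gsta4 UMIs was not tested. The median gene stood at a log2 ratio of 0.21 in mural, 0.22 in Schwann and -0.74 in macrophage cells and within 0.1 elsewhere. Centring on it gave 6 lower in mural, 4 lower in Schwann and 10 higher in macrophage cells. The macrophage median is lowered by counting uninjured UMIs under 3 as 3, so those 10 are no check on the 4 reported. A minimum of 200 UMIs, which leaves fewer genes, gave 1 lower in mural, 0 higher and 1 lower in Schwann, 2 lower in endothelial and 0 lower in macrophage cells. Thinning to 1000 UMIs, which drops shallower cells, gave 4 lower in Schwann, 1 higher and 1 lower in endothelial and 2 higher in macrophage cells. Weighting cells alike, without an interval, gave 2 higher in mural, 1 higher in endothelial, and 2 higher and 9 lower in macrophage cells. Stricter cell limits gave 5 lower in mural cells, no doublet removal 2 higher in mural cells, and no minimum on a gene's UMIs 5 lower in macrophage cells. Subtracting epithelial RNA by its keratin level, chosen after seeing the data, gave 2 higher in Schwann cells. Adding the Wfdc18-led cluster to the epithelium, also chosen after seeing the data, gave 8 higher and 3 lower. Apart from those that change the calling itself, the causes were not tested. The small uninjured classes limit the rest: 15 macrophage, 45 endothelial, 55 Schwann and 58 mural cells.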
